A study of Mus musculus with 8 samples.

Results

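The genes of the cytoplasmic ribosomal proteins were followed across total RNA and heavy polysome RNA of C2C12, a line of mouse myoblasts that form myotubes in low serum. Members were chosen by name alone: symbols that start with Rpl or Rps and a number, with their l, x or a variants, together with Rplp0, Rplp1, Rplp2 and Rpsa. The rule found 84 of the 23420 genes listed, namely 31 of the small subunit, 43 of the large subunit, 3 of the P stalk and 7 paralogs. Of these, 77 passed the filter on low counts, as did 13167 genes in all. The 7 that did not pass were Rpl3l, Rpl10l, Rpl39l, Rpl23a, Rpl26, Rps13 and Rps29, and Rpl26 had 0 counts in all 8 libraries.

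The cells either overexpressed AUF1, the mRNA-binding protein encoded by Hnrnpd, or were labelled WT, and all had spent 48 h in medium with 2% horse serum after growth in 10% fetal bovine serum. The 4 groups were AUF1 heavy polysomes, WT heavy polysomes, AUF1 total RNA and WT total RNA, with 2 libraries in each. The sources used here do not give whether WT cells hold a control vector or whether AUF1 cells are 1 clone, so AUF1 itself and other differences between the 2 lines cannot be told apart. No label states that libraries of 1 group are separate cultures, and the p-values then cover only how these libraries vary, in part perhaps for technical reasons.

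Each ribosome is built from a small subunit, which reads the mRNA, and a large subunit, which joins the amino acids. The P stalk, made of Rplp0, Rplp1 and Rplp2, recruits elongation factors to the large subunit. The mRNAs of ribosomal proteins start with a C followed by a run of C and T (U in the RNA), the 5' terminal oligopyrimidine or TOP motif, and are known to move between translating polysomes and lighter fractions when growth signals through mTOR change. Some ribosomal proteins have a paralog with a narrower expression, such as Rpl3l, the muscle form of Rpl3.

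Counts assigned to genes ranged from 25281224 to 34917660 per library. Values are given as CPM, counts brought to a common library total with TMM factors (trimmed mean of M-values). A log2 fold change of polysome over total RNA is therefore relative to the bulk of mRNAs, not an absolute share of each mRNA on polysomes. Hnrnpd had 549 and 427 CPM in AUF1 polysomes against 106 and 131 CPM in WT polysomes, and 448 and 397 CPM in AUF1 total RNA against 64.2 and 99.6 CPM in WT total RNA. The groups did not overlap, and the log2 fold change in total RNA was 2.37 ± 0.32 (SE; edgeR quasi-likelihood test, p adjusted over all genes = 0.0413, called under 0.05), a call lost whichever 1 of the 8 libraries was left out (adjusted p of 0.0932 to 0.393). On polysomes it was 2.04 ± 0.32 (edgeR adjusted p = 0.0608, and 0.00184 with the replicate number as a block). Libraries with the same replicate number deviated together over all genes (r = 0.62 to 0.81 between groups), so values with that block are given where they change a call. Over the ribosomal protein genes alone the same correlations were weaker, from -0.23 to 0.52, and those of AUF1 total RNA were -0.19 with AUF1 polysomes and -0.23 with WT polysomes. The muscle character of the cells was visible in 8 differentiation markers, which summed to 20432 to 25384 CPM in AUF1 total RNA and 3943 to 4494 CPM in WT total RNA. Each list of immune, endothelial or neural markers summed to at most 1.85 CPM in each library.

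The levels of ribosomal protein genes in these tables were uneven. Across all libraries 24 of the 84 members averaged 100 CPM or more, 24 averaged 10 to under 100 CPM, 20 averaged 1 to under 10 CPM and 16 were below 1 CPM. Per kilobase of transcript, the highest level was that of Rpl8 (1571 CPM per kb), a large subunit protein close to the peptidyl transferase center, followed by Rplp1 (1398 CPM per kb) and Rps15 (1112 CPM per kb). At the low end were Rpl26 (0 CPM per kb), Rpl3l (0.083 CPM per kb), Rpl39l (0.15 CPM per kb) and Rpl10l (0.267 CPM per kb). Many ribosomal protein genes have processed pseudogenes. Of the 84 members 43 had at least 50% unique 50-base stretches, meaning stretches found in no annotated transcript of another gene. Copies outside annotated transcripts were not searched. Across the 84 members the unique share and log10 of the mean count had r = 0.43 and rho = 0.46. Rps2, with 28.7% unique stretches and 71 pseudogenes that share a stretch, averaged 1.57 CPM. The sources used here do not give how reads with several matches were counted, so differences in level between genes are given as a description and the tests below compare libraries for 1 gene.

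The paralogs are given here beside their partners. Rpl3, which lines the peptidyl transferase center, had 12.1 and 4.68 CPM in AUF1 polysomes, 13.1 and 6.25 CPM in WT polysomes, 23.8 and 11.6 CPM in AUF1 total RNA, and 22.1 and 11.8 CPM in WT total RNA. Its muscle paralog Rpl3l had 1 to 8 counts in each library, too few to test. Although the AUF1 libraries held more muscle marker RNA, Rpl3l had 3 and 2 counts in AUF1 polysomes, 8 and 5 in WT polysomes, 4 and 1 in AUF1 total RNA, and 2 and 3 in WT total RNA. A difference in Rpl3l was thus not detectable at this depth.

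Rpl22 and Rpl22l1 encode alternative forms of 1 large subunit protein. Rpl22 had 254 and 418 CPM in AUF1 polysomes, 231 and 347 CPM in WT polysomes, 399 and 430 CPM in AUF1 total RNA, and 324 and 388 CPM in WT total RNA. Rpl22l1 had 16.4 and 17.2 CPM in AUF1 polysomes, 11.3 and 16.2 CPM in WT polysomes, 23.5 and 29.7 CPM in AUF1 total RNA, and 35.0 and 32.3 CPM in WT total RNA. Rpl22l1 was lower on polysomes than in total RNA in every library of both genotypes, whereas the libraries of Rpl22 overlapped.

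Rps27l, a paralog of Rps27 known as a p53 target, had 49.5 and 84.6 CPM in AUF1 polysomes, 39.0 and 63.8 CPM in WT polysomes, 152 and 113 CPM in AUF1 total RNA, and 118 and 94.0 CPM in WT total RNA. Its partner Rps27 averaged 1.21 CPM, but 1.35% of its 50-base stretches were unique, so the pair cannot be ranked. Rpl7l1, a relative of Rpl7, had 174 and 192 CPM in AUF1 polysomes, 150 and 188 CPM in WT polysomes, 196 and 166 CPM in AUF1 total RNA, and 195 and 175 CPM in WT total RNA, with overlapping groups. Rpl36al averaged 22.9 CPM and Rpl36a 0.334 CPM, a pair that was likewise not ranked. Rpl10l, known from testis, had 77 counts in the first WT polysome library and 0 in the other libraries, and Rpl39l had 33 counts there and 1 in the second WT polysome library. That WT polysome library had 63 genes with at least 10 counts that were at 0 in the other 7 libraries, and each other library had 0 such genes.

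As a group, the ribosomal protein mRNAs were less abundant on heavy polysomes than in total RNA. They took 0.943% and 1.05% of the counts in AUF1 polysomes, 0.800% and 0.864% in WT polysomes, 1.46% and 1.53% in AUF1 total RNA, and 1.26% and 1.43% in WT total RNA. Each polysome library was below each total RNA library, and so were the sums over small subunit members (0.300% to 0.398% on polysomes, 0.497% to 0.577% in total RNA). The 5 most abundant members held 40.6% to 45.6% of these counts, so the per-gene values follow.

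**Figure D1:**
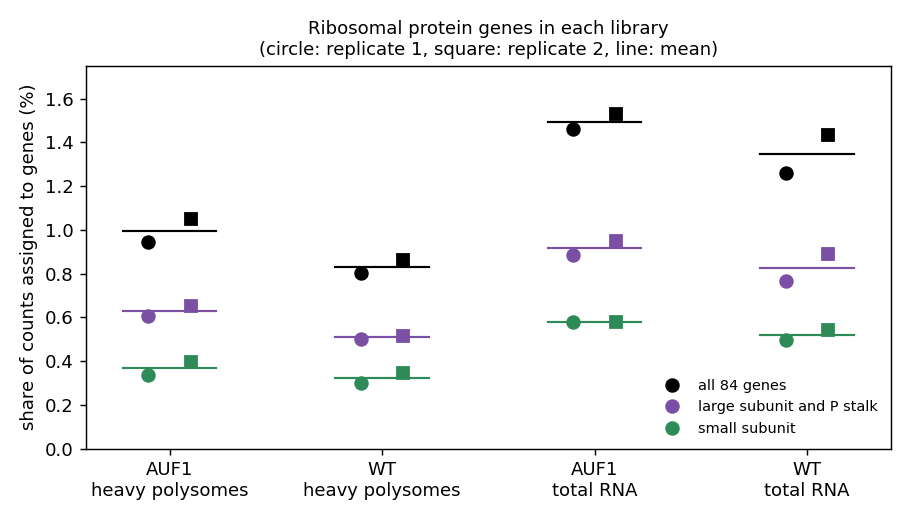
Share of each library's gene counts taken by ribosomal protein genes, in percent, for the 4 groups. Circles are replicate 1, squares replicate 2 and lines group means; black is all 84 genes, purple the large subunit with the P stalk, green the small subunit. The 4 polysome libraries lie between 0.800% and 1.05% and the 4 total RNA libraries between 1.26% and 1.53%.

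The median log2 fold change of the 77 members between heavy polysomes and total RNA was -0.58 in AUF1 cells and -0.70 in WT cells, beside -0.02 and 0.02 over all genes tested. The AUF1 median was -0.76 within replicate number 1 and -0.36 within number 2, and the WT median -0.73 and -0.63. In AUF1 cells 63 of 77 members lay below 0 and in WT cells 69 of 77. In AUF1 cells both polysome libraries were below both total RNA libraries for 51 of 77 members (66.2%), beside 13.4% of all genes. In WT cells this held for 54 of 77 (70.1%), beside 14.9% of all genes. All 4 polysome libraries were below all 4 total RNA libraries for 33 of 77 members (42.9%), beside 4.11% of all genes. Leaving out 1 library gave 34 to 43 members, but this count cannot fall when a library is removed. In each genotype 2 members had both polysome libraries above both total RNA libraries (8.86% of all genes in AUF1 cells and 13% in WT cells). Of the 77 members 0 had all 4 polysome libraries above all 4 total RNA libraries, beside 0.957% of all genes.

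By subunit, the median over both genotypes was -0.80 for 29 small subunit members, -0.48 for 41 large subunit members and -1.26 for the 3 members of the P stalk. In WT cells 24 of 29 small subunit members and 26 of 41 large subunit members had polysome libraries below both total RNA libraries. In AUF1 cells the counts were 23 of 29 and 23 of 41. The difference between subunits was not tested, since genes are not replicates.

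Per gene, edgeR's quasi-likelihood test called 0 members in AUF1 cells and 0 in WT cells (0% of all genes in each), also with the replicate number as a block (0.0152% of all genes in each). Without the block 25 and 26 members had an unadjusted p under 0.05, each of them lower. DESeq2 called 5 and 5 members, beside 29 and 30 of all 13167 genes. Averaged over both genotypes, edgeR called 0 members (0.00759% of all genes), and 41 had an unadjusted p under 0.05, all lower. DESeq2 called 19 members, beside 212 of all genes. The share of all genes with an unadjusted p under 0.05 is not given for these comparisons. With the replicate number as a block, edgeR called 16 members lower and 0 higher, beside 1.48% of all genes called lower. These 16 calls rest on few libraries: 0 remained without the second WT total RNA library, 1 without the first, and 2 and 5 without the first and second AUF1 polysome library, while 38 were called without the second AUF1 total RNA library. The values below give the log2 fold change over both genotypes without the block, then the adjusted p with it. For some genes the adjusted p without the block follows, a fit in which 0 members were called.

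Rpl41, which encodes a basic peptide of 25 residues at the subunit interface, had the largest fall among the 16 called members. It had 76.0 and 103 CPM in AUF1 polysomes, 86.2 and 68.0 CPM in WT polysomes, 490 and 330 CPM in AUF1 total RNA, and 305 and 302 CPM in WT total RNA. Every polysome library was far below the lowest total RNA library. The log2 fold change was -2.08 ± 0.22 (edgeR adjusted p = 0.00451 with the block, 0.188 without). Rps28 was lower still at -4.51 ± 1.40 but was not called (edgeR adjusted p = 0.150 with the block, 0.547 without), and its value rests on 1 AUF1 total RNA library.

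The P stalk genes Rplp0 and Rplp1 also fell. Rplp0 had 567 and 390 CPM in AUF1 polysomes, 542 and 372 CPM in WT polysomes, 1622 and 1122 CPM in AUF1 total RNA, and 1202 and 1156 CPM in WT total RNA (log2 fold change -1.44 ± 0.24, edgeR adjusted p = 0.00816 with the block, 0.326 without). Rplp1 had 475 and 384 CPM in AUF1 polysomes, 471 and 314 CPM in WT polysomes, 1156 and 877 CPM in AUF1 total RNA, and 1109 and 795 CPM in WT total RNA (-1.26 ± 0.23; edgeR adjusted p = 0.00911 with the block, 0.335 without). Neither gene's fractions overlapped. Rplp2, the remaining stalk gene, was at -0.38 ± 0.26 and was not called (edgeR adjusted p = 0.367 with the block).

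Of the small subunit, 8 members fell with the block: Rpsa, Rps12, Rps19, Rps14, Rps20, Rps4x, Rps3 and Rps10. Rpsa, which sits on the solvent side of the small subunit and is also known as the laminin receptor, had 10.3 and 9.55 CPM in AUF1 polysomes, 8.64 and 5.84 CPM in WT polysomes, 32.7 and 21.7 CPM in AUF1 total RNA, and 23.8 and 21.3 CPM in WT total RNA (-1.55 ± 0.24, edgeR adjusted p = 0.00911 with the block, 0.326 without). Rps19, a gene mutated in Diamond-Blackfan anemia in humans, had 71.5 and 78.7 CPM in AUF1 polysomes, 54.9 and 58.4 CPM in WT polysomes, 169 and 187 CPM in AUF1 total RNA, and 177 and 112 CPM in WT total RNA (-1.30 ± 0.21, edgeR adjusted p = 0.0201 with the block). In both genes every polysome library was below every total RNA library.

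Rps20, a protein of the small subunit head, had 132 and 150 CPM in AUF1 polysomes, 120 and 135 CPM in WT polysomes, 247 and 262 CPM in AUF1 total RNA, and 256 and 263 CPM in WT total RNA. Its log2 fold change was -0.94 ± 0.16 (edgeR adjusted p = 0.0265 with the block). Rps3, which lies at the mRNA entry channel, had 594 and 616 CPM in AUF1 polysomes, 450 and 404 CPM in WT polysomes, 1202 and 970 CPM in AUF1 total RNA, and 831 and 822 CPM in WT total RNA. It was at -0.90 ± 0.16 (edgeR adjusted p = 0.0336 with the block). The remaining calls of this subunit were Rps12 at -1.33, Rps14 at -1.04, Rps4x at -0.91 and Rps10 at -0.78. Rps14 had 220 and 262 CPM in AUF1 polysomes against 767 and 634 CPM in AUF1 total RNA, but its WT fractions overlapped, with 244 and 376 CPM on polysomes and 537 and 360 CPM in total RNA.

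Of the large subunit, Rpl41, Rpl39, Rpl10a, Rpl3 and Rpl13a fell with the block, as did the paralog Rpl22l1 at -0.98 ± 0.21 (edgeR adjusted p = 0.0384 with the block). Rpl39, which lines the exit tunnel of the nascent chain, had 24.4 and 32.4 CPM in AUF1 polysomes, 29.1 and 30.5 CPM in WT polysomes, 80.0 and 79.1 CPM in AUF1 total RNA, and 136 and 88.9 CPM in WT total RNA (-1.70 ± 0.22; edgeR adjusted p = 0.00904 with the block, 0.220 without). Rpl10a was at -1.08 ± 0.33 and Rpl13a, the protein of the interferon-regulated GAIT complex in humans, at -0.75 ± 0.16. Rpl3 was at -0.94 ± 0.47 (edgeR adjusted p = 0.0387 with the block, 0.847 without). Its values were lower in replicate 2 than in replicate 1 in all 4 groups, so the fractions overlapped across replicate numbers but not within them (-0.86 within number 1, -1.10 within number 2).

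Other members lay closer to 0. Rpl8, the member with the highest level per kilobase, had 1597 and 1798 CPM in AUF1 polysomes, 1035 and 1103 CPM in WT polysomes, 2499 and 2041 CPM in AUF1 total RNA, and 1331 and 1416 CPM in WT total RNA, a log2 fold change of -0.39 ± 0.15 that was not called (edgeR adjusted p = 0.216 with the block). The 9 members above 0 reached 0.46 ± 0.37 in Rpl28 and 0.45 ± 0.55 in Rps3a1, both below 1 CPM on average. Among them Rps27a, whose protein is made as a fusion with ubiquitin, was at 0.13 ± 0.24 and Rpl36al at 0.22 ± 0.23.

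**Figure D2:**
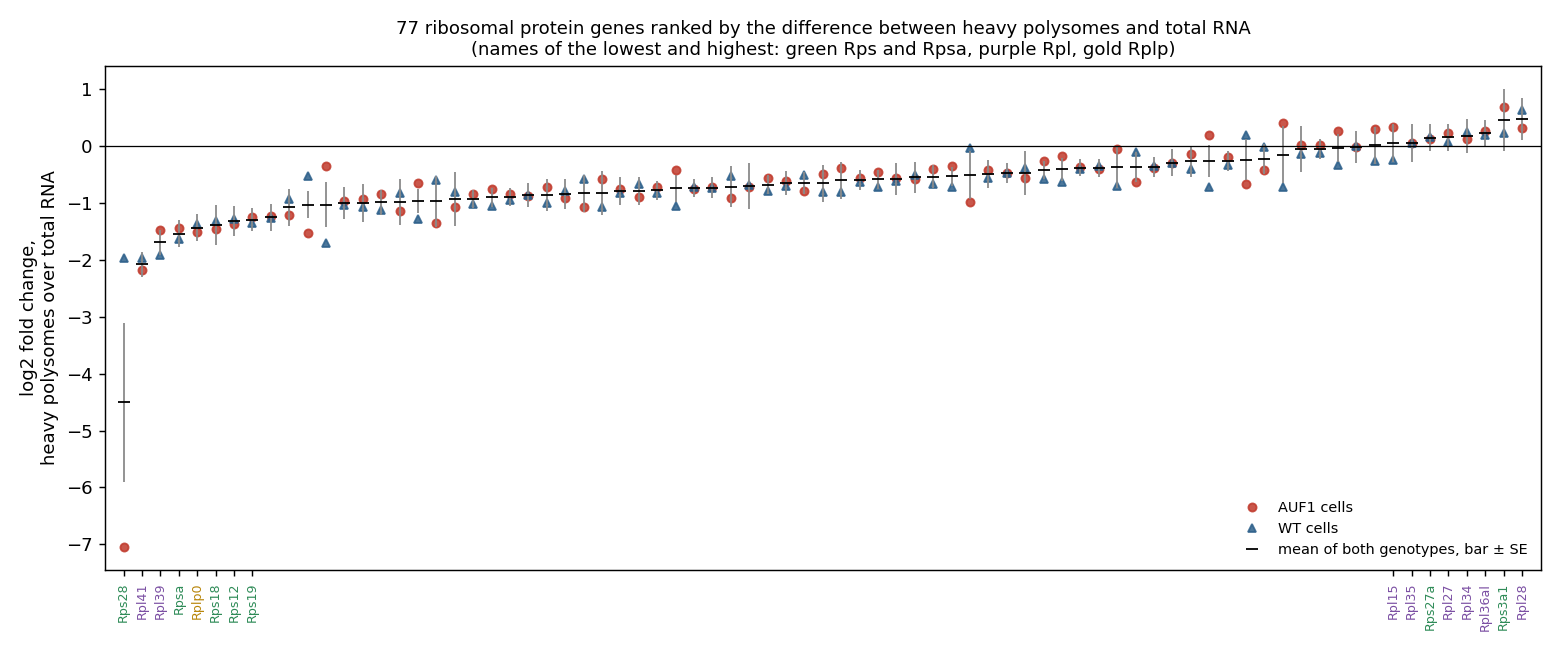
Log2 fold change of heavy polysomes over total RNA for the 77 ribosomal protein genes that passed the filter, ordered by the mean of both genotypes, with names under the lowest and highest. Red circles are AUF1 cells, blue triangles WT cells, dashes the mean with its SE; 68 of 77 means lie below 0. Rps28 at the left rests on 1 AUF1 total RNA library.

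**Figure D3:**
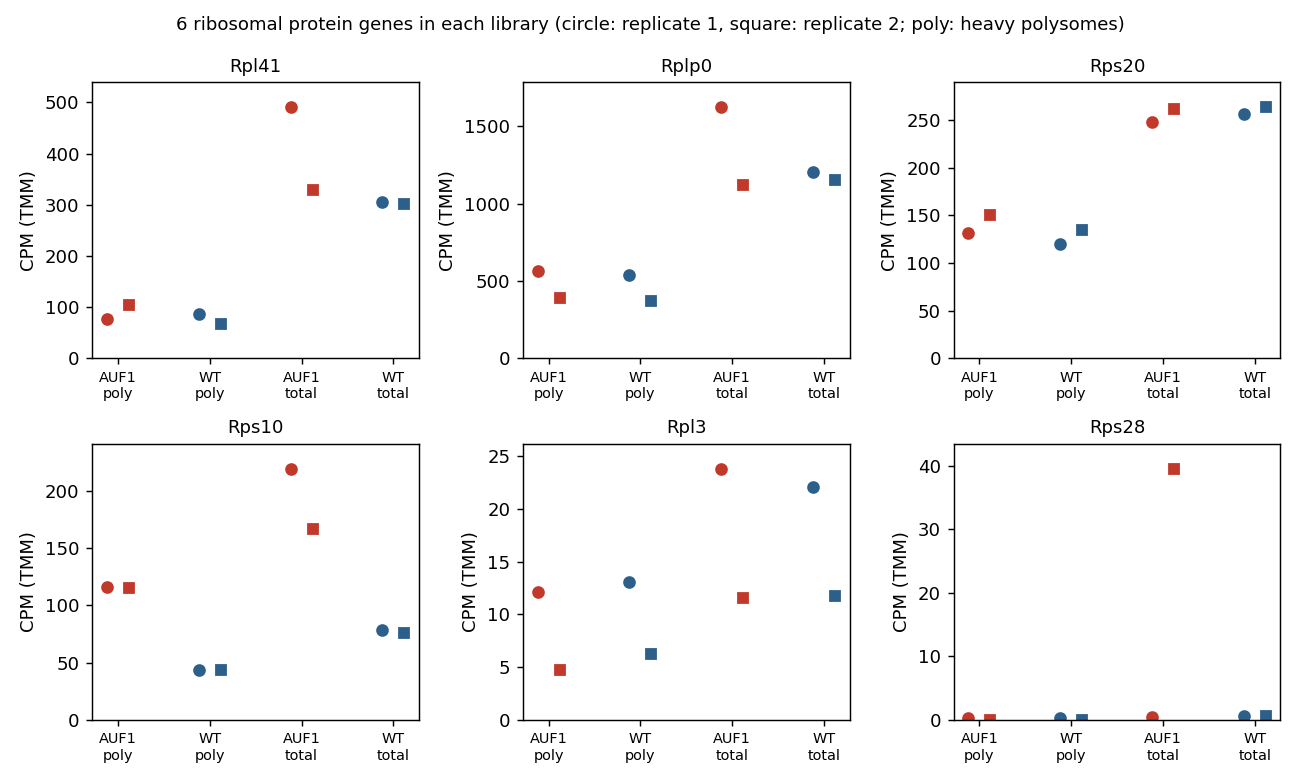
CPM of 6 ribosomal protein genes in each library, by group (circle replicate 1, square replicate 2; red AUF1, blue WT). Polysome values of Rpl41, Rplp0 and Rps20 lie below all total RNA values, Rps10 is higher in AUF1 cells in both fractions, Rpl3 is lower in replicate 2, and Rps28 reaches 39.5 CPM in a single library.

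Ribosomal protein genes are short, with a median coding length of 454.5 bases beside 1392 bases for all genes tested. Members were set beside other genes of the same class of coding length. The classes are wide, so length was not matched gene by gene. Rpl41 and Rpl39, with 75 and 153 coding bases, are the shortest members tested and both fall in the class under 450. Under 450 bases the median log2 fold change of polysomes over total RNA was -0.72 for 37 members and 0.06 for 709 other genes. From 450 to under 750 bases it was -0.59 for 28 members and 0.19 for 1574 other genes. From 750 to under 1200 bases it was -0.65 for 10 members and 0.06 for 2574 other genes. Among the 77 members, log2 coding length and the log2 fold change had r = 0.29 and rho = 0.11, a description over genes that share the same libraries.

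**Figure D4:**
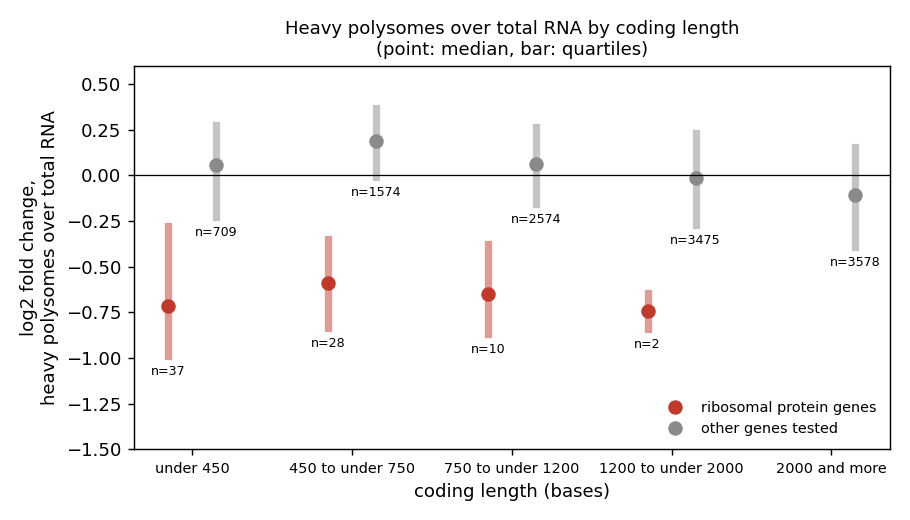
Median (point) and quartiles (bar) of the log2 fold change of heavy polysomes over total RNA, mean of both genotypes, by coding length in bases. Red is ribosomal protein genes and grey the other genes tested; in the 3 shortest classes the members' medians lie between -0.72 and -0.59 and those of other genes between 0.06 and 0.19.

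The TOP motif was looked for around the annotated transcript starts in RefSeq (build GRCm38.p6), where 64 members had an entry. A run of C followed by at least 6 C or T was sought from 50 bases before to 25 bases after the start on the sense strand. It was present in 46 of 64 members (71.9%) and in 38.6% of all 27025 genes with an entry. A gene with several starts counted if any of them had the run. The windows below run from 10 bases before the start and are 30 bases long. They are shown because these genes carry the results: the first 4 have the run, in capitals, near the start, and the last 3, among the largest falls, have none in the window.
Rps10 (chr17:27635225-27635254, minus strand): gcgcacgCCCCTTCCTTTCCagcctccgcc
Rpl13a (chr7:45128726-45128755, minus strand): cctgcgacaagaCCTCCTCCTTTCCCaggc
Rpl39 (chrX:37085203-37085232, minus strand): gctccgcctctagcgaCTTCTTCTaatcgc
Rpl22l1 (chr3:28805498-28805527, plus strand): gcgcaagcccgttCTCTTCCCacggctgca
Rpl41 (chr10:128549149-128549178, minus strand): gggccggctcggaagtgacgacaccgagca
Rplp0 (chr5:115559457-115559486, plus strand): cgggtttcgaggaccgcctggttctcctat
Rpsa (chr9:120127756-120127785, plus strand): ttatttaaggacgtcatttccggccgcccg

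An annotated start need not be the start used in these cells, so an absent run says only that the letters are not in the window. Members with a run had a median log2 fold change of -0.54 (44 genes, 38 below 0) and members without one -0.72 (15 genes, 13 below 0). The other genes had medians of 0.01 with a run (3783 genes) and 0.01 without (5903 genes). Other motifs were searched on either strand from 250 bases before to 50 after the start. There, CCGGAAG, the core recognised by ETS factors, was in 40.6% of members and 9.93% of all genes with an entry. TCGCGAGA was in 17.2% and 1.13%, AAGATGGC, the YY1 core, in 9.38% and 3.19%, and TATAAA in 10.9% and 15.7%. The order for TATAAA depended on the window. On the sense strand from 50 bases before to 50 after the start it was in 5 of 64 members (7.81%) and 4.05% of all genes.

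Other lists of the translation machinery were read the same way, as log2 fold changes of polysomes over total RNA averaged over both genotypes. Over all genes, most calls with the block in this comparison were lost without the first or the second WT total RNA library. Calls in these lists thus rest on few libraries, as those of the members do. The 24 TOP mRNAs outside the members, mostly elongation and initiation factors, had a median of -0.51. Of these, 7 were called lower with the block, beside 1.48% of all genes. Among these 24 were Fau and Gnb2l1, ribosomal protein genes under other names. Eef2, the factor that moves the ribosome along the mRNA, had 2901 and 3260 CPM in AUF1 polysomes, 3176 and 2863 CPM in WT polysomes, 7264 and 5802 CPM in AUF1 total RNA, and 4771 and 5167 CPM in WT total RNA (-0.90 ± 0.16, edgeR adjusted p = 0.0387 with the block, 0.334 without). Eif3f and Eif3h, subunits of the initiation factor eIF3, were at -0.98 ± 0.17 and -0.85 ± 0.17. Gnb2l1, the gene of the small subunit scaffold RACK1, was at -0.76 ± 0.15 (edgeR adjusted p = 0.0517 with the block).

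The 6 noncoding hosts of small nucleolar RNAs that carry TOP starts were further down, at a median of -1.39. Of these, 5 of 6 were called lower with the block, beside 1.48% of all genes. Snhg6 had 5.69 and 3.10 CPM in AUF1 polysomes, 4.06 and 3.87 CPM in WT polysomes, 17.3 and 16.3 CPM in AUF1 total RNA, and 17.3 and 17.0 CPM in WT total RNA (-2.02 ± 0.26; edgeR adjusted p = 0.00786 with the block). Gas5 was at -1.67 ± 0.30, Snhg8 at -1.46 ± 0.19, Snhg12 at -1.33 ± 0.30 and Snhg1 at -0.97 ± 0.21. The remaining host, Snhg5, stood on the other side of 0 at 0.43 ± 0.18 and was not called (edgeR adjusted p = 0.211 with the block, 0.759 without). It had 72.0 and 52.4 CPM in AUF1 polysomes against 42.3 and 41.9 CPM in AUF1 total RNA, and 68.9 and 67.2 CPM in WT polysomes against 51.0 and 59.3 CPM in WT total RNA. Its polysome libraries were thus above its total RNA libraries in each genotype, and over both genotypes the fractions overlapped. Rpl41, at -2.08, was close to the lowest of the 6 hosts.

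By their medians, lists outside the TOP class stood nearer to all genes. The 76 mitochondrial ribosomal protein genes, whose products make the ribosome of the organelle, had a median of 0.04 and 0 calls by edgeR with or without the block (4 with an unadjusted p under 0.05 with the block). The 106 ribosome biogenesis factors were at -0.25. Of the 106, 7 were called lower with the block, beside 1.48% of all genes, and 0 without it (21 with an unadjusted p under 0.05). Among the 7 was Mybbp1a, a nucleolar regulator of RNA polymerase I, at -1.67 ± 0.22 (edgeR adjusted p = 0.00451 with the block, 0.220 without). The 15 genes of RNA polymerase I were at -0.24 and the 20 regulators of mTOR and TOP translation at 0.14, with 0 calls in each by edgeR with or without the block (5 and 8 with an unadjusted p under 0.05 with the block). Within replicate number 1 and 2 the medians of ribosomal protein genes were -0.73 and -0.48, and those of mitochondrial ribosomal protein genes -0.30 and 0.33.

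**Figure D5:**
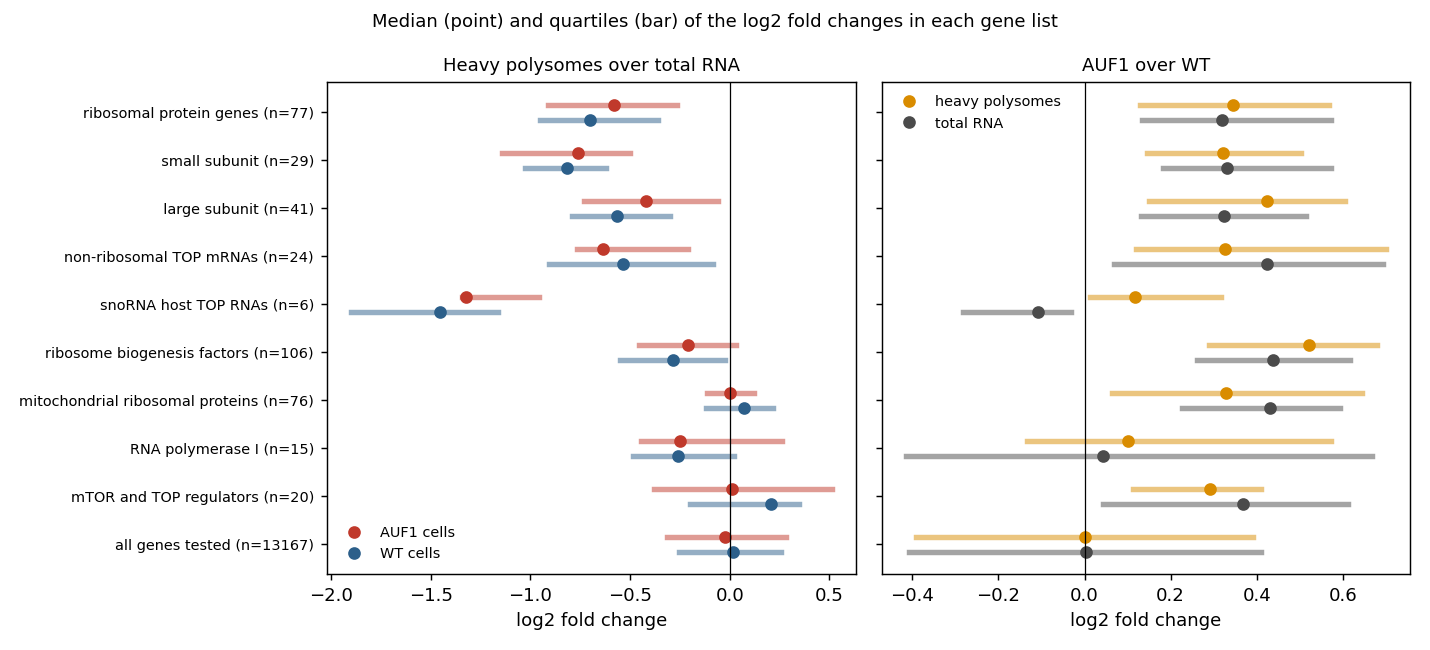
Median (point) and quartiles (bar) of log2 fold changes in each gene list. Left, heavy polysomes over total RNA in AUF1 (red) and WT (blue) cells; right, AUF1 over WT on polysomes (orange) and in total RNA (grey). Ribosomal protein genes, other TOP mRNAs and small nucleolar RNA hosts lie below 0 on the left, and mitochondrial ribosomal protein genes at 0.00 to 0.08.

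The second question was whether cells with more AUF1 held more ribosomal protein mRNA. The median log2 fold change of AUF1 over WT was 0.35 on polysomes and 0.32 in total RNA, beside 0.00 over all genes in each. On polysomes 66 of 77 members lay above 0, and AUF1 libraries were above both WT libraries for 38 of them (49.4%, beside 23.6% of all genes) and below for 1 (1.3%, beside 21.3%). In total RNA 66 of 77 lay above 0, with 32 above (41.6%, beside 22.5%) and 2 below (2.6%, beside 17.8%). In both fractions 18 members (23.4%, beside 14.7% of all genes) were higher in AUF1 with no overlap, among them Rpl6, Rpl8, Rpl10, Rpl13, Rpl14, Rpl28, Rps3, Rps9, Rps25 and Rps27a. None were lower in both (12.8% of all genes).

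Scaling moved these values: by library totals in place of TMM the median over all genes was -0.12 on polysomes and -0.20 in total RNA, and that of the members 0.23 and 0.11. With library totals 58 of 77 members lay above 0 on polysomes and 47 of 77 in total RNA. Relative to all genes the members stood 0.34 higher on polysomes and 0.32 higher in total RNA with TMM, and 0.35 and 0.31 higher with library totals. In total RNA the members' median was 0.39 within replicate number 1 and 0.14 within number 2, and on polysomes 0.30 and 0.42. Without the first AUF1 total RNA library the total RNA median was 0.080, and without the second AUF1 polysome library the polysome median was 0.23.

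The edgeR test called 0 members on polysomes (0.349% of all genes) and 0 in total RNA (1.02%), where 11 and 6 members had an unadjusted p under 0.05, all higher. The share of all genes with an unadjusted p under 0.05 is not given here. DESeq2 called 3 of 77 members in each, beside 856 and 885 of all 13167 genes. With the replicate block 4 members rose on polysomes (6.7% of all genes rose) and 2 in total RNA (6.99%), so the share of members called was below that of all genes.

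Rps10, a small subunit protein near the mRNA entry site whose gene lies on chr17 (27630418-27636669, minus strand, mm10), was called in both fractions. It had 116 and 116 CPM in AUF1 polysomes against 43.3 and 43.1 CPM in WT polysomes, and 219 and 167 CPM in AUF1 total RNA against 78.2 and 75.9 CPM in WT total RNA. The lowest AUF1 library was above the highest WT library in each fraction. The log2 fold change was 1.42 ± 0.24 on polysomes (edgeR adjusted p = 0.00348 with the block, 0.0734 without) and 1.32 ± 0.24 in total RNA (0.00473 and 0.0780). Without 1 library the blocked adjusted p stayed between 0.000232 and 0.0293 on polysomes; in total RNA it reached 0.143 without the first and 0.0644 without the second WT total RNA library.

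Rps27a had 4.20 and 5.60 CPM in AUF1 polysomes against 2.13 and 2.29 CPM in WT polysomes, and 4.80 and 4.26 CPM in AUF1 total RNA against 2.11 and 1.86 CPM in WT total RNA. It rose in total RNA at 1.19 ± 0.34 (edgeR adjusted p = 0.0460 with the block, 0.188 without), a call lost without either AUF1 polysome library, the first AUF1 total RNA library or either WT total RNA library (adjusted p up to 0.323).

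On polysomes Rps15a, Rpl7 and Rpl14 were the other calls. Rps15a had 34.3 and 76.4 CPM in AUF1 polysomes against 22.2 and 21.1 CPM in WT polysomes, and 53.6 and 43.4 CPM in AUF1 total RNA against 32.8 and 38.9 CPM in WT total RNA. Its polysome value was 1.35 ± 0.41 (edgeR adjusted p = 0.0368 with the block), and 0.63 with an adjusted p of 0.360 without the second AUF1 polysome library. The call was also lost without the second WT polysome library or either WT total RNA library. Rpl7 had 184 and 240 CPM in AUF1 polysomes against 106 and 104 CPM in WT polysomes (1.01 ± 0.33, edgeR adjusted p = 0.0406 with the block, and 0.375 without the second AUF1 polysome library; also lost without any WT library), while its total RNA libraries overlapped, with 317 and 255 CPM in AUF1 and 276 and 163 CPM in WT. Rpl14 had 151 and 161 CPM in AUF1 polysomes against 88.3 and 93.2 CPM in WT polysomes, and 179 and 197 CPM in AUF1 total RNA against 127 and 145 CPM in WT total RNA. The groups of Rpl14 did not overlap, at 0.78 ± 0.22 on polysomes (edgeR adjusted p = 0.0331 with the block, and 0.236 without the first AUF1 polysome library). That call was lost in 6 of the 8 fits that left out 1 library, and kept only without either AUF1 total RNA library.

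In other lists of ribosome production, the 106 biogenesis factors had a median of 0.52 on polysomes and 0.44 in total RNA, with 104 and 100 above 0. With the block 5 and 9 of the 106 were called higher, close to the 6.7% and 6.99% of all genes. Rrp12, needed in yeast for export of pre-ribosomes, had 44.3 and 39.2 CPM in AUF1 polysomes against 21.7 and 11.9 CPM in WT polysomes, and 112 and 94.4 CPM in AUF1 total RNA against 26.4 and 24.5 CPM in WT total RNA (2.02 ± 0.35 in total RNA, edgeR adjusted p = 0.00151 with the block, 0.0653 without). Bop1 and Bysl, factors of subunit assembly, were at 1.21 ± 0.32 and 1.07 ± 0.27 in total RNA. Mitochondrial ribosomal protein genes were at 0.33 and 0.43, and the other TOP mRNAs at 0.33 and 0.42, close to the 0.35 and 0.32 of the cytoplasmic ribosomal protein genes.

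Among other TOP mRNAs Naca, a subunit of the complex that binds nascent chains, had 313 and 371 CPM in AUF1 polysomes against 111 and 140 CPM in WT polysomes, and 317 and 454 CPM in AUF1 total RNA against 109 and 151 CPM in WT total RNA (1.57 ± 0.31 in total RNA, edgeR adjusted p = 0.00159 with the block, 0.0921 without). In the list of mTOR and TOP regulators, Rptor, the mTORC1 scaffold, had the smallest p in total RNA. It was at 1.43 ± 0.32 (edgeR adjusted p = 0.00319 with the block, 0.115 without). Next by p were Tsc2 at 0.67 ± 0.27, Eif4g1 at 0.66 ± 0.30 and Ddit4 at 0.64 ± 0.31. None of these was called with the block (edgeR adjusted p = 0.0915, 0.0770 and 0.178). Whether mTOR signalling differed between the genotypes was not tested. The 13 p53 targets, a pathway known to respond to surplus ribosomal proteins, had a median of 0.78 on polysomes and 1.01 in total RNA. Their lead gene Cdkn1a, the cell cycle inhibitor p21 that also rises when myoblasts differentiate, was at 1.78 ± 0.27 in total RNA (edgeR adjusted p = 0.0462 without the block). As for Hnrnpd, that call without the block was lost whichever 1 of the 8 libraries was left out, and also with library totals.

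Differentiation markers moved with genotype in these libraries. All 8 differentiation markers were called higher in AUF1 cells with the block in both fractions, and their sum was 18038 and 20932 CPM in AUF1 polysomes against 3323 and 4788 CPM in WT polysomes. The 6 fibroblast markers summed to 728 and 403 CPM in AUF1 polysomes against 3156 and 684 CPM in WT polysomes, and to 1520 and 389 CPM in AUF1 total RNA against 4495 and 646 CPM in WT total RNA. Within each replicate number the AUF1 sum was the lower one. The sums of the genotypes overlapped in both fractions, since replicate 1 was above replicate 2 in each group. By gene, edgeR with the block called Dcn, Mfap5 and Pdgfra lower in AUF1 in both fractions, and Col1a1 lower on polysomes. None of these calls held without the block, and Col3a1 was not called in total RNA with it. The 4 markers of undifferentiated myoblasts summed to 802 and 481 CPM in AUF1 polysomes against 497 and 506 CPM in WT polysomes. In total RNA they summed to 1700 and 428 CPM in AUF1 against 658 and 427 CPM in WT, so these sums overlapped between genotypes in both fractions. The part of these cell states in the ribosomal protein values was not tested. In bulk RNA, fewer cells of a type and less RNA per cell cannot be told apart.

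A further question was whether AUF1 changed the polysome share of ribosomal protein mRNAs beyond their change in total RNA. The AUF1 effect on polysomes minus that in total RNA had a median of 0.08 over the members, beside -0.02 over all genes, and 0.21 within replicate number 2 against -0.08 within number 1. The edgeR test called 0 members and 0% of all genes, 0 members had an unadjusted p under 0.05 (1 with the block), and DESeq2 called 0. The median SE of a member in this comparison was 0.49, so changes of that size could not be resolved. The members with the smallest p were Rps14 (-1.004 ± 0.47), Rps28 (-5.08 ± 2.76), Rpl35a (1.34 ± 0.78) and Rps15a (0.92 ± 0.57), each with an edgeR adjusted p of 1.

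Single libraries set some of these values. Rps28 had 39.5 CPM in the second AUF1 total RNA library and 0.0317 to 0.608 CPM in the other 7. Rpl35a had 82.5 CPM in the second WT total RNA library and 14.4 to 32.9 CPM in the other 7. Without the second AUF1 total RNA library the interaction of Rps28 was 0.26.

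Between replicate numbers few members differed. Replicate 2 against replicate 1 had a median log2 fold change of 0.05 over the members and 0.06 over all genes. With the 4 groups as blocks, edgeR called 6 of 77 members (29.8% of all genes), Rpl15 higher (0.64 ± 0.20, adjusted p = 0.0398) and Rpl3, Rpl37, Rpl10a, Rpl18 and Rplp1 lower (-1.09, -0.70, -0.65, -0.55 and -0.44). The split of 1 higher and 5 lower depended on scaling, with 3 and 3 by DESeq2 size factors and 4 and 1 by library totals. Replicate 2 was above replicate 1 in all 4 groups for 9 members (11.7%, beside 21.8% of all genes) and below for 12 (15.6%, beside 26%). Rpl3 was the clearest case, with an edgeR adjusted p of 0.00124.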

How the data were processed

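The authors deposited raw counts for each gene symbol in 8 libraries, made from libraries prepared with 500 ng RNA and a NEBNext Ultra kit, per the labels' protocols. Per the submitters' processing notes, STAR, Bowtie, cutadapt, Trimmomatic, SAMtools and mm10 were used. The sources here do not state versions, the counting program, its strand setting, the annotation or the handling of reads with several matches. Reads outside genes were 6.04% to 7.23% of counts and ambiguous reads 0.254% to 0.389%; these lines were left out, and the line for reads that were not unique holds 0 in each library. Libraries titled High were read as heavy polysomes. Titles number replicates 1 and 2, and descriptions call the second one 3.

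Genes were filtered with filterByExpr (13167 kept) and scaled by TMM. The quasi-likelihood fit of edgeR 4.0.16 (R 4.3.3, limma 3.58.1) had 1 term for each group. Two-sided p-values were Benjamini-Hochberg adjusted over all tested genes and called under 0.05. Each SE is the log2 fold change divided by the root of F. Residual degrees of freedom were 4, or 3 with the block, and the median SE of a member was 0.35 between genotypes in total RNA and 0.25 for polysomes against total RNA over both genotypes.

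The numbers were treated as pairs because the differences between replicates 2 and 1 correlated over all genes between every 2 groups (r = 0.62 to 0.81); over the members alone they ranged from -0.23 to 0.52. The labels do not say what a number shares. Alternatives were the replicate block, DESeq2 1.42.0, its size factors, library totals, TMM without the members, no filter, pseudogene rows added, values within each number and leaving out each library. The edgeR procedure was tested on simulated counts.

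Coordinates, coding lengths and unique 50-base stretches come from mm10 with GENCODE M21 (84 of 84 members matched, 11987 of 13167 tested genes with a coding transcript), and promoters from RefSeq. The stretches were compared with annotated transcripts, not with the whole genome. The members, lists, tests and naming rule were chosen with earlier results of these data known. The rule names Hnrnpd, paralog pairs, members called in a comparison (up to 10 each way by size, otherwise the 4 of smallest p), the highest and lowest 4 per length, up to 5 each way by replicate number, and up to 4 genes of smallest p per list. Rps20, Rps3, Rpl13a, Snhg5, Snhg12, Rps2, Rpl28, Rps3a1 and Rplp2, the members with no overlap in both fractions and the genes whose starts are shown were chosen after their values were seen. Rps4l was not analysed here.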

Additional observations from a re-analysis of the deposited data

Results flagged for a closer look

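For 2 members the AUF1 and WT libraries did not overlap in either fraction but stood in opposite order. Rpl22l1, the paralog of Rpl22, was lower in AUF1 total RNA (23.5 and 29.7 CPM in AUF1 against 35.0 and 32.3 CPM in WT, log2 fold change -0.34) and higher on AUF1 polysomes (16.4 and 17.2 CPM against 11.3 and 16.2 CPM, 0.29). The AUF1 effect on polysomes minus that in total RNA was 0.63. Rpl29, a large subunit protein, was higher in AUF1 total RNA (0.666 and 0.740 CPM against 0.324 and 0.597 CPM, 0.60) and lower on AUF1 polysomes (0.435 and 0.442 CPM against 0.511 and 0.540 CPM, -0.26), a difference of -0.86 from fewer than 1 CPM per library. The order of libraries is not itself a test of the difference. Single WT libraries moved these values. Without the first WT polysome library the polysome value of Rpl22l1 was 0.053 and its difference between fractions 0.39. Without the first WT total RNA library the total RNA value of Rpl29 was 0.13 and its difference between fractions -0.46. In the edgeR fit both interactions had an adjusted p of 1.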

How the results depend on the processing

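Main values are given first. For AUF1 against WT in total RNA, 134 genes and 0 members were called, and 1730 and 2 with the replicate block, 885 and 3 by DESeq2, and 0 genes with DESeq2 size factors or library totals. The members' median of 0.32 was 0.11 with library totals and 0.14 within replicate number 2. On polysomes 46 genes and 0 members were called, 1716 and 4 with the block, 856 and 3 by DESeq2, 94 genes without a filter and 0 with DESeq2 size factors or library totals; the median of 0.35 was 0.23 with library totals. For polysomes against total RNA in AUF1 cells 0 genes were called, 2 with the block, 29 by DESeq2 (5 members) and 1 without a filter, and the median of -0.58 was -0.36 within number 2. In WT cells 0 were called, 2 with the block and 30 by DESeq2 (5 members), and the median was -0.63 within number 2. Over both genotypes 1 gene was called, 196 with the block (16 members), 212 by DESeq2 (19 members) and 0 with library totals, and the median was -0.48 within number 2. By replicate number 6 members were called and 10 by DESeq2. Genes called higher made up 30.2% of calls by number, 37.8% with DESeq2 size factors, 44.4% by DESeq2 and 47.6% with library totals.

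Leaving out 1 library, with or without the block, gave 0 to 3011 genes and 0 to 11 members for AUF1 on polysomes, 0 to 2975 and 0 to 4 in total RNA, 0 to 1133 and 0 to 18 for polysomes against total RNA in AUF1 cells, 0 to 70 and 0 to 9 in WT cells, 0 to 1980 and 0 to 38 over both genotypes, and 0 to 11 and 0 to 1 for the interaction. By replicate number it gave 2590 to 4202 genes and 2 to 8 members. Medians ranged from 0.19 to 0.42 for AUF1 on polysomes, 0.079 to 0.43 in total RNA, and for polysomes against total RNA -0.73 to -0.43 in AUF1 cells and -0.72 to -0.60 in WT cells. Members higher in AUF1 total RNA with no overlap numbered 44 to 55, since 3 libraries overlap less easily than 4. The interaction of Rps28 ranged from -7.16 to 0.89 and changed sign without the second AUF1 total RNA library; that library alone had 39.5 CPM. With 2 libraries a group, 1 lone library is assumed to vary like the other groups, and small changes of single genes cannot be resolved.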
